A study of Homo sapiens with 3 samples.

Results

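The replication-dependent histone genes of chromosome 6 supply most of the histone protein that packs newly copied DNA. The genes described here are the RefSeq protein-coding genes between 25900 and 28000 kb of human chromosome 6 (build hg38) whose symbols start with H1-, H2AC, H2BC, H3C or H4C. There were 53 of them among the 19974 protein-coding genes of chromosomes 1 to 22 and X. They comprise 6 genes of the linker histone H1 and, for the core of the nucleosome, 11 genes of H2A, 14 of H2B, 10 of H3 and 12 of H4. The data are chromatin immunoprecipitation (ChIP-seq) libraries of KBM7, a human chronic myeloid leukaemia line known to be close to haploid, in its wild-type state and with no treatment named in the labels. The antibody against H3K27ac, an acetylation found at promoters and enhancers in use, was Abcam ab4729, and that against H3K4me3, a methylation found at promoters, was Millipore 07-473. Each mark has 1 library and the input has 1, so no value has a replicate error and no comparison was tested. Counts and medians of histone genes are set beside those of all protein-coding genes as a description.

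A replication-dependent histone gene is short, has no intron, and gives an mRNA that ends in a stem-loop bound by SLBP instead of a poly(A) tail. Its transcription rises at the start of S phase, when the cyclin E and CDK2 kinase phosphorylates the coactivator NPAT. The copies lie in clusters, where H2A and H2B genes often sit head to head and share a short promoter between them. Individual copies differ in use between cell types, and H1-6 is known as the linker histone of the testis.

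The 6 promoters below show what the genes share and where the marks differ among them. H1-4 carried the highest H3K4me3 fold of the 53 genes and H1-5 neither mark, H2BC17 carried both marks and H2BC6 neither, and H4C12 and H4C11 have promoters that are 98.3% identical although peaks touched the record of H4C12 only. Each sequence is the RefSeq reference of GRCh38.p14 from 250 bases before to 50 bases after the annotated start, 5′ to 3′ on the gene's strand. Capitals mark TATAAA (the TATA box, gene strand only) and, on either strand, CCAAT (the CCAAT box), ATTTGCAT (the octamer, known from H2B promoters) and AAACACA (the H1 box, known from H1 promoters). None of these 4 strings contains another. The windows are chr6:26156079-26156378 (plus strand), chr6:27867539-27867838 (minus), chr6:27893175-27893474 (plus), chr6:26183511-26183810 (plus), chr6:27831511-27831810 (minus) and chr6:27823842-27824141 (plus).
H1-4: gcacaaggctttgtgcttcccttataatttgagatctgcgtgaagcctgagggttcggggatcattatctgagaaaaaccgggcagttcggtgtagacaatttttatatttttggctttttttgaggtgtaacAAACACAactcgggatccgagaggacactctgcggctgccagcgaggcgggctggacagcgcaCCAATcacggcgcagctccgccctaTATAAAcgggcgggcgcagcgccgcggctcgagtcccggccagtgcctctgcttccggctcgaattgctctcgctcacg
H1-5: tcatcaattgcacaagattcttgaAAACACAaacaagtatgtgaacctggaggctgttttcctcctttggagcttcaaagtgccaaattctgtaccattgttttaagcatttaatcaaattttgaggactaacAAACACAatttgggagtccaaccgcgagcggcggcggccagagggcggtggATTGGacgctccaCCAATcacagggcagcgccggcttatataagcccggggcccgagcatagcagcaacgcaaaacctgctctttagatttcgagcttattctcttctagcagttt
H2BC17: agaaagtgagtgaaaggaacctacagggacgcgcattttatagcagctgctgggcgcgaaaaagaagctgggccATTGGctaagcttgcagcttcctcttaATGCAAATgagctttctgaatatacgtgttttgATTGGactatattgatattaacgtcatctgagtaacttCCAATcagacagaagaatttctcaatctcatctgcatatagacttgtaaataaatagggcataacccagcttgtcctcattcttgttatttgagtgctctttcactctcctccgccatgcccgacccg
H2BC6: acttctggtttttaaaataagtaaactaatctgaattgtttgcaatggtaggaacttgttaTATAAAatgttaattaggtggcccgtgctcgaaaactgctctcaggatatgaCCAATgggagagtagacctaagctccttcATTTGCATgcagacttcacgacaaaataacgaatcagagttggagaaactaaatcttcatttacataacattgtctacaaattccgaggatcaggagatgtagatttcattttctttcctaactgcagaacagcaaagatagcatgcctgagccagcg
H4C12: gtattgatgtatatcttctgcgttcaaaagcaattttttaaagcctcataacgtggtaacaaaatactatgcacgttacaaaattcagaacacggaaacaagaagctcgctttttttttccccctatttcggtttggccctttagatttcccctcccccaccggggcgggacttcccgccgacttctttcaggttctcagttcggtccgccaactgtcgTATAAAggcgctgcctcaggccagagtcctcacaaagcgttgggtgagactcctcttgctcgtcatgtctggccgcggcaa
H4C11: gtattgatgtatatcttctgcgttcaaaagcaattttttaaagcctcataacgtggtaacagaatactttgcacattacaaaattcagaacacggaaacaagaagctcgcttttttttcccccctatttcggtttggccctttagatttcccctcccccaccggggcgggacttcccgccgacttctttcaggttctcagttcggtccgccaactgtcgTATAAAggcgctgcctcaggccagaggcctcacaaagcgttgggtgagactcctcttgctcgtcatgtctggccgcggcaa

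Histone promoters were rich in these strings whether or not the gene was marked. A promoter sequence was given for 48 of the 53 genes. The TATA box string was found in 26 of 48 (54.2%), against 6.92% of 15813 protein-coding promoters and 19.4% of the 1414 from records of at most 3 kb, and in 24 of those 26 a match began at -40 to -20 from the start. CCAAT was found in 41 of 48 (85.4%), against 36.3% of protein-coding promoters and 38.2% of those from short records, and all 38 H1, H2A, H2B and H3 promoters had it but 3 of 10 H4 promoters did. The octamer was found in 8 of 10 H2A and 11 of 14 H2B promoters, against 1.70% of protein-coding promoters and 4.38% of those from short records. A paired H2A gene shares most of this window with its H2B partner, so the same octamer can be counted at both. All 6 H1 promoters held the H1 box, against 4.25% of protein-coding promoters and 7.99% of those from short records, and no promoter of another histone class did. Between genes with both marks (30 promoters) and with neither (12 promoters) the shares lay close for the TATA box (53.3% and 58.3%) and CCAAT (83.3% for each), and were 46.7% and 33.3% for the octamer. A match describes the letters in this window and is not a bound site.

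**Figure D1:**
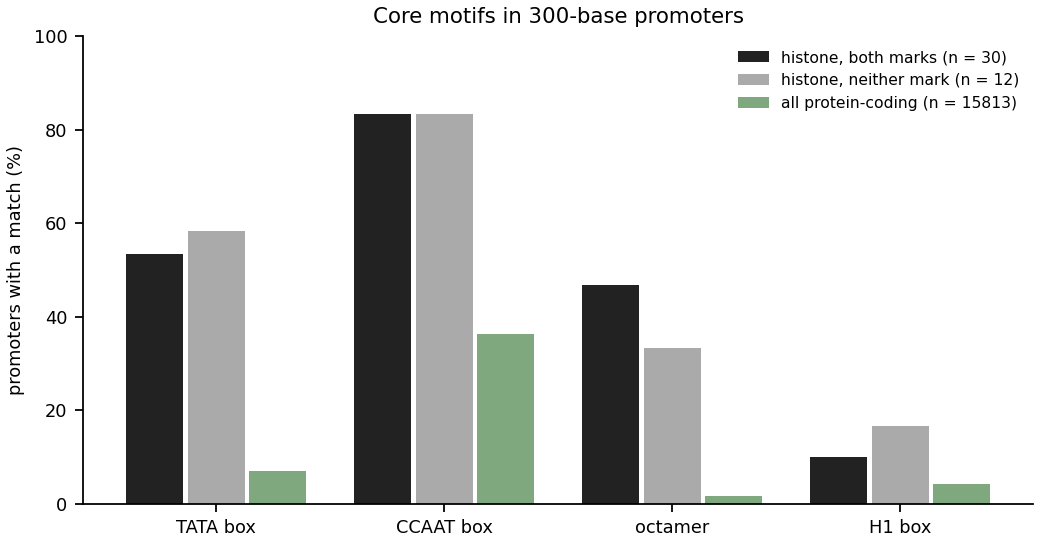
Share of 300-base promoters (%, vertical axis) that hold each string, for histone genes with both marks, histone genes with neither mark and all protein-coding genes. TATA box and CCAAT matches stand at 53.3% and 83.3% of marked and at 58.3% and 83.3% of unmarked histone promoters, above the 6.92% and 36.3% of all protein-coding promoters.

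The promoters held fewer CpG than those of all protein-coding genes, but about as many as those of genes with short records. The median promoter of the histone genes had 42.3% GC and 9.5 CpG dinucleotides in 300 bases, against 62.7% and 22 over all protein-coding promoters and 55.5% and 9 over those of genes with records of at most 3 kb. Relative to base composition the CpG content was close to that of all genes and above that of genes with short records. The median observed to expected ratio was 0.740, against 0.763 over all protein-coding promoters and 0.401 over those from records of at most 3 kb. Histone genes with both marks had a median of 9 CpG (5 to 25) and those with neither 11.5 (4 to 17), so the 2 ranges overlapped. In the middle range of the histone promoters' CpG counts, 14 of 26 histone genes carried both marks (53.8%), close to the 54.3% of all 1795 protein-coding genes in that range.

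A gene is called marked when a deposited peak lies within 1 kb of its RefSeq record. By this rule 34 of the 53 histone genes carried both marks (64.2%, against 67.3% of all protein-coding genes) and 13 neither (24.5%, against 23.8%). The other 6 carried H3K27ac only, a state of 529 of the 19974 protein-coding genes and 71 of the 1906 with records of at most 3 kb. No histone gene carried H3K4me3 only, a state that is also uncommon over all protein-coding genes (1246 of 19974) and those with short records (79 of 1906). H3K27ac was thus present at 40 genes (75.5%, against 70.0%) and H3K4me3 at 34 (64.2%, against 73.6%). The shares with each mark, with both and with neither lie near those of all genes. The share with H3K27ac only is larger than over all genes, but it rests on 6 genes and was not tested. Most histone gene records are under 1 kb long, and a short record with its 1 kb margins covers less sequence than a long one. Among the 1906 protein-coding genes with records of at most 3 kb, which include most histone genes, 31.8% carried both marks, 35.6% H3K27ac and 36.0% H3K4me3, and 60.3% carried neither.

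The lists from which the peaks come hold 96659 H3K27ac and 36951 H3K4me3 peaks on chromosomes 1 to 22 and X. A peak's fold enrichment is the authors' value at the summit, and the number of fragments there was recovered from the fold and p of each peak. Between 25900 and 28000 kb lie 209 H3K27ac and 103 H3K4me3 peaks, of which 53 (25.4%) and 39 (37.9%) were within 1 kb of a histone gene. The expected background at the peaks of the window had a median of 3.63 for H3K27ac and 2.66 for H3K4me3, the same as over the whole lists. The weakest peak of the window held 11 fragments for either mark, and the weakest of the whole lists 9 for H3K27ac and 8 for H3K4me3. Enrichment below what the authors' threshold let through was not detectable. As a check of the cell type, all 9 blood markers (such as SPI1, GATA2 and MYB) carried both marks. Among markers of other cells ALB, DES, INS and HBB carried neither mark, and CD3E and GFAP carried both.

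The genes lie in 3 blocks separated by more than 300 kb, and marked and unmarked genes alternate within the first and the third. Block 1 (26017032 to 26285534, 268.5 kb) holds 32 genes, of which 22 had both marks, 4 H3K27ac only and 6 neither. Block 2 (27132316 to 27147562, 15.2 kb) holds 5 genes, and all 5 had both. Block 3 (27807479 to 27893891, 86.4 kb) holds 16 genes, of which 7 had both, 2 H3K27ac only and 7 neither. H3K27ac covered 43.5% of block 1, 96.6% of block 2 and 22.4% of block 3, and H3K4me3 covered 22.3%, 68.7% and 15.4%.

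**Figure D2:**
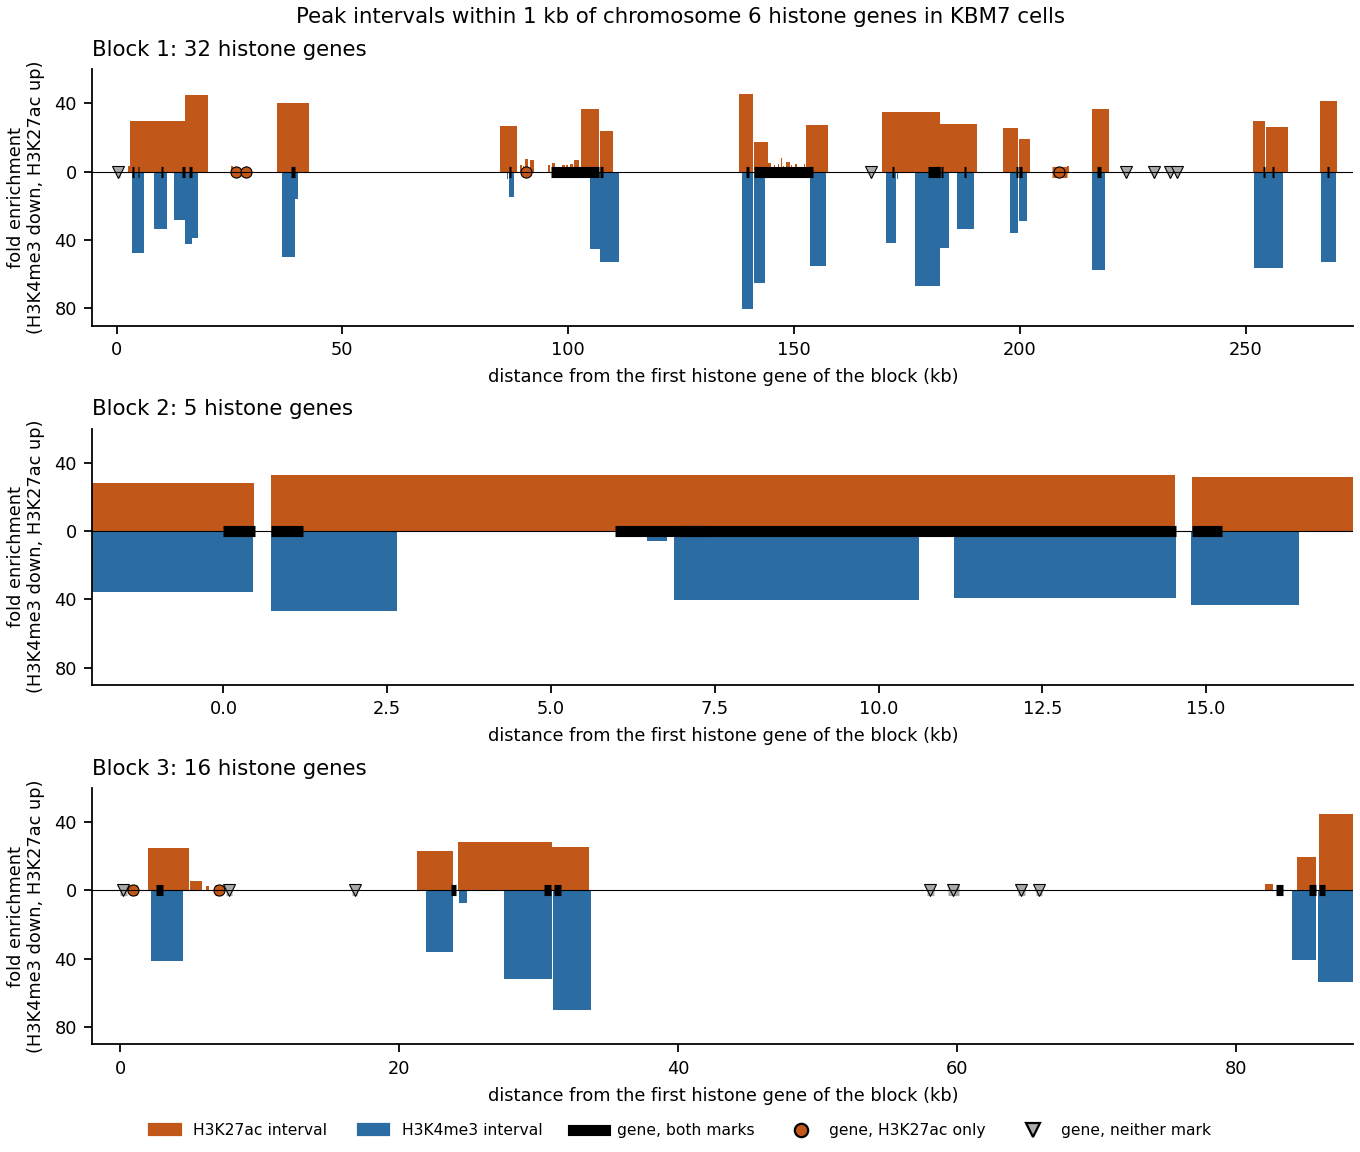
Peaks within 1 kb of a histone gene in the 3 blocks, drawn to scale along the distance from the block's first histone gene (kb) and clipped at the panel edges, with H3K27ac fold enrichment upward and H3K4me3 fold downward. Black bars are records of genes with both marks, orange circles genes with H3K27ac only and grey triangles genes with neither. The 4 unmarked genes near the right of block 1 and the 4 in block 3 fall in long stretches without either mark.

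Unmarked genes were grouped. The longest stretch of the blocks without a peak of either mark ran for 46.8 kb in block 3 (27841768 to 27888537) and contains H2AC16, H1-5, H3C11 and H4C13. The next, 30.6 kb of block 1 (26236705 to 26267314), contains H4C6, H4C7, H3C7 and H2BC9. A stretch of 14.9 kb (27813855 to 27828739) contains the unmarked H2BC14 and H4C11, and H2AC14, whose H3K27ac peaks lay outside its record. In the 2 longest stretches the genes nearest to a peak were H4C6, 3689 bp from the H3K27ac interval of H1-3 (fold 36.7), and H4C13, 15004 bp from a peak of fold 5.20. H1-1, H2BC6, H2BC13 and H2BC14 stood closer to a peak. H1-1 was 1809 bp from an H3K27ac peak of fold 3.26, H2BC6 1255 bp from one of 4.66, H2BC14 1168 bp from one of 2.80 and H2BC13 1537 bp from one of 24.8.

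At the 1 kb limit, H2AC13 was called for H3K27ac by an interval 799 bp away that covers H3C10, and missed a call for H3K4me3 by lying 1017 bp from the interval of H3C10. H3C12 was called for H3K4me3 by an interval 657 bp away that covers H2AC17. With peaks that touch the record itself 33 genes had both marks, and H3C12 was the gene lost. Just below the lower border of the window lie H2AC1 and H2BC1, histone genes of the testis, and both had neither mark.

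Peaks at histone genes were strong and wide for H3K27ac, and weaker than usual for H3K4me3. The median fold of the strongest H3K27ac peak was 31.3 over the 40 genes with one (quartiles 26.0 and 36.7), against 22.9 over 13977 protein-coding genes with a peak (14.8 and 30.5). The median H3K4me3 fold was 47.8 over 34 histone genes (41.5 and 56.2), against 62.3 over 14694 genes (45.9 and 75.1). For H3K27ac 34 of 40 histone genes lay above the median of all genes, and for H3K4me3 27 of 34 lay below it. H3K27ac intervals had a median width of 4566 bp at histone genes, against 1817 bp, whereas H3K4me3 intervals were of common width (2682 bp against 2486 bp). In 29 of the 34 histone genes with both marks (85.3%) the H3K27ac interval was the wider of the pair, against 23.4% of the 13448 protein-coding genes with both.

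**Figure D3:**
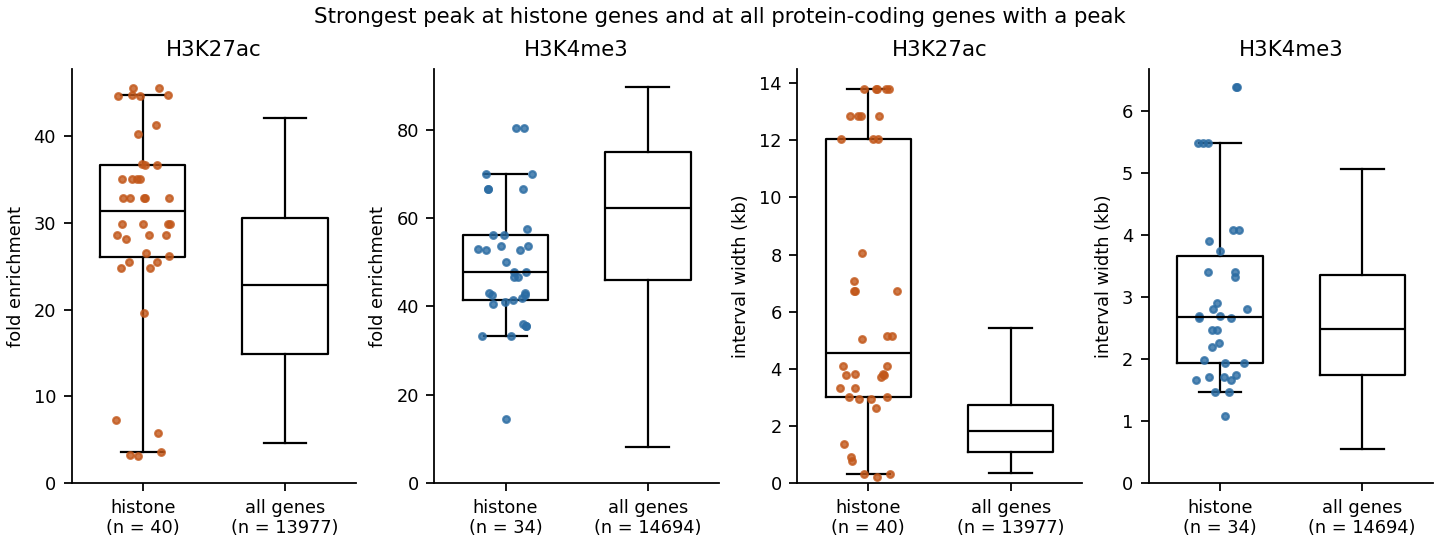
Fold enrichment (first pair of panels) and interval width in kb (second pair) of the strongest peak, at histone genes (left in each panel, 1 point per gene) and at all protein-coding genes with a peak (right). Boxes span the quartiles with the median as a line, and whiskers run from the 5th to the 95th percentile. H3K27ac points lie mostly above the all-gene median in fold and width, and H3K4me3 points mostly below it in fold.

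Neighbouring histone genes share intervals, so these values are not independent. The strongest H3K27ac peaks of 40 genes were 23 distinct intervals, and the strongest H3K4me3 peaks of 34 genes were 22. The widest H3K27ac interval, 13807 bp in block 2 (27133039 to 27146845, fold 32.8, 198 fragments), lay within 1 kb of H2BC11, H2AC11, H2BC12, H4C9 and H2AC12. Its summit was 6359 bp from the start of H4C9, so the fold describes the interval and not that promoter. Intervals of 12857 bp (within 1 kb of H4C4, H3C4, H2AC7 and H2BC7) and 12038 bp (within 1 kb of H3C1, H4C1, H4C2 and H3C2) followed. All 3 stood at percentile 99.9 of width in the H3K27ac list. The widest H3K4me3 interval at a histone gene measured 6375 bp and joined H3C8 and H2BC10.

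Among the linker histone genes H1-2, H1-3 and H1-4 carried both marks, and H1-1, H1-5 and H1-6 had no H3K4me3. H1-4 (26156329 to 26157115) had an H3K27ac fold of 45.6 with 186 fragments at the summit (95% counting interval 160.2 to 214.7). Its H3K4me3 fold was 80.5 with 250 fragments (220.0 to 283.0) and had rank 1950 in the H3K4me3 list. Both folds were the highest among the histone genes, and H2BC5 was within 1 kb of the same peaks. H1-2 (26055740 to 26056470) had folds of 40.2 and 50.1 with 185 and 171 fragments, and H1-3 (26234212 to 26234987) had 36.7 and 57.6 with 169 and 190. At H1-6, the testis linker histone, 4 weak H3K27ac peaks were listed, the strongest at fold 7.30 with 27 fragments (17.8 to 39.3), and no H3K4me3. H1-1 and H1-5 had neither mark. The H1 box was present in all 6 of these promoters, marked and unmarked alike, as the sequences of H1-4 and H1-5 show.

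The H2A and H2B genes form 9 pairs whose facing ends lie 193 to 247 bp apart, and 7 pairs carried both marks at both genes. In 8 pairs the strands are known, and all 8 run head to head. Of the 18 paired genes 14 had both marks (77.8%), 2 had H3K27ac only and 2 neither. Of the 7 unpaired H2A and H2B genes 3 had both (42.9%), 1 H3K27ac only and 3 neither. The numbers are small and were not tested. The other pairs were H2BC13 with H2AC13 and H2AC14 with H2BC14, both in block 3, whose 4 records no peak touched.

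Among the marked pairs, H2AC17 and H2BC17 had the highest H3K27ac fold (44.6, 194 fragments, interval 167.7 to 223.3) with an H3K4me3 fold of 53.6. Both of these peaks touch H2BC17, and the intervals at H2AC17 had folds of 19.6 for H3K27ac and 41.0 for H3K4me3. The highest H3K4me3 fold of a pair was at H2AC15 and H2BC15 (70.0, 215 fragments, 187.2 to 245.7) with an H3K27ac fold of 28.6. The H3K4me3 peak touches H2BC15, with 51.6 at H2AC15, and the H3K27ac peak touches H2AC15, with 25.6 at H2BC15. H2AC7 had 35.0 for H3K27ac and 66.6 for H3K4me3, against 28.1 and 44.7 in the intervals at H2BC7. At H2BC4 the folds were 36.7 and 45.3, and at H2AC6 24.2 and 52.8. H2BC8 and H2AC8 were lowest of the marked pairs for each mark (25.5 and 35.6, with 117 and 113 fragments). These peaks touch H2BC8, and the intervals at H2AC8 had folds of 19.3 and 28.9. The counting intervals of the H3K4me3 summits of the H2BC8 and H2BC15 peaks, 93.1 to 135.9 and 187.2 to 245.7 fragments, did not overlap. These 2 peaks were picked as the lowest and highest of the pairs, and their difference was not tested. In block 2, the H3K27ac interval of fold 32.8 touches H2AC11 and H2BC12, and the intervals at H2BC11 and H2AC12 had 28.1 and 31.7. The H3K4me3 folds were 46.7 at H2AC11 and 43.1 at H2AC12, against 35.7 at H2BC11 and 39.2 at the facing end of H2BC12.

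In all 7 marked pairs both marks broke off between the genes and resumed at the partner. No interval of either mark ran across the space between the 2 genes. The free stretch measured 64 to 261 bp for H3K27ac (median 185) and 42 to 267 bp for H3K4me3 (median 171). It took up a median of 75.5% of the space between the genes for H3K27ac and 68.5% for H3K4me3. At H2BC11 and H2AC11 the H3K27ac intervals stopped 7 bp inside the H2BC11 record and resumed 4 bp before that of H2AC11, with 250 bp free (27132789 to 27133038). At H2BC4 and H2AC6 185 bp were free of H3K27ac (26123954 to 26124138) and 81 bp of H3K4me3, with folds of 36.7 and 24.2 in the H3K27ac intervals to the left and right.

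**Figure D4:**
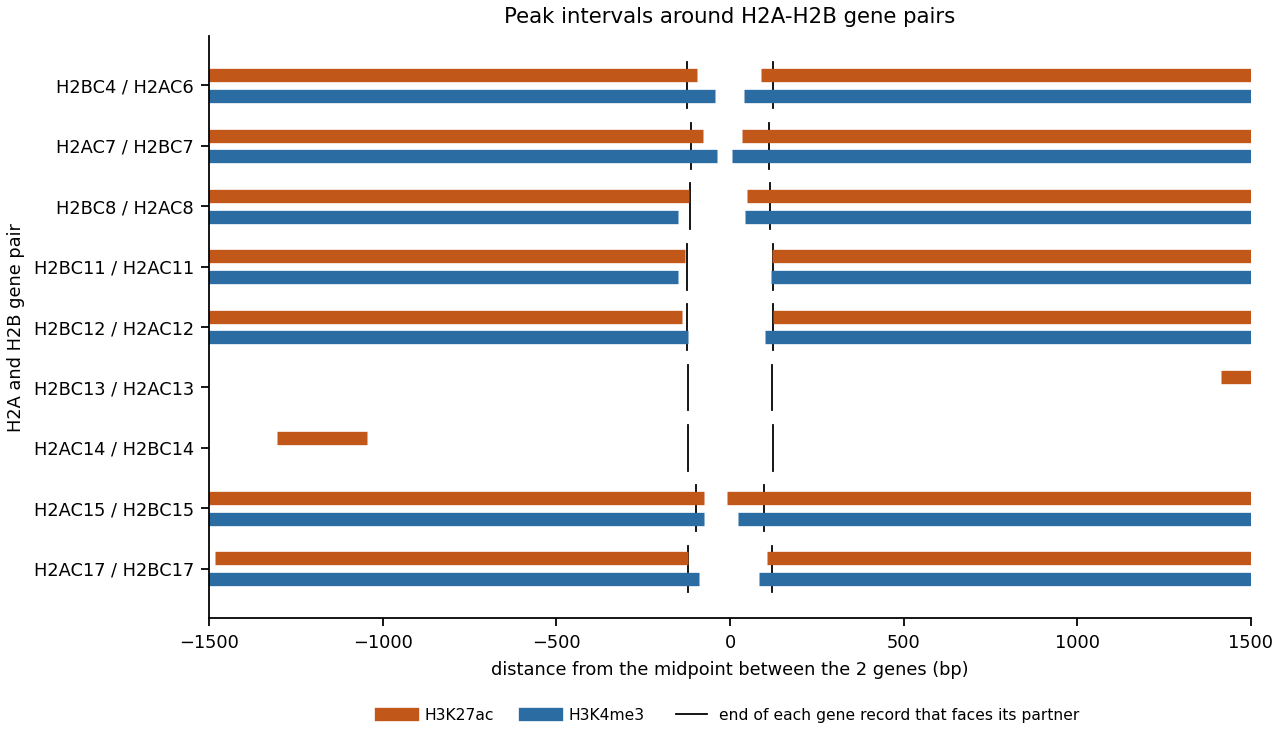
H3K27ac (orange) and H3K4me3 (blue) intervals around the midpoint between the genes of 9 H2A and H2B pairs, 1 row per pair, with the distance from the midpoint in bp. Black lines mark the end of each gene record that faces its partner. In the 7 marked pairs both marks leave a free stretch of 42 to 267 bp between the genes, and the H2BC13 and H2AC14 pairs have no interval at either gene.

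Outside the pairs fewer of the marked histone genes had such a break at the start, and for H3K27ac their share was near that of all genes. A break here is a space of at most 500 bp between consecutive intervals of 1 mark that overlaps the 300-base promoter window. This rule was set after the gaps of the pairs had been seen, so the counts that include the pairs restate those gaps. Over all histone genes with a peak within 1 kb of the start the counts were 20 of 30 for H3K4me3 (66.7%, against 7.79% of 10678 protein-coding genes) and 19 of 34 for H3K27ac (55.9%, against 32.1% of 10015). The pairs made up 13 genes of either count. Outside the pairs and without H3C4, which shares its start with H2AC7, 6 of 16 genes had a break in H3K4me3 (37.5%) and 5 of 19 had one in H3K27ac (26.3%). Those with a break in H3K4me3 were H3C2, H2AC4, H1-2, H2BC5, H4C9 and H4C12, and those with one in H3K27ac were H3C2, H1-6, H2BC5, H3C8 and H4C12. H1-4, H1-3, H4C8 and H4C5 had H3K4me3 across the start without one. The nearest H3K4me3 summit was upstream of the start in 13 of 30 histone genes (43.3%), against 18.7% of all protein-coding genes and 25.3% of those with records of at most 3 kb. For H3K27ac it was upstream in 11 of 36 (30.6%), near the 24.9% of all genes and 28.6% of those with short records. A summit lay within 500 bp of the start in 13 of 30 histone genes for H3K4me3 (43.3%, against 69.3% and 62.9%) and in 13 of 36 for H3K27ac (36.1%, against 76.0% and 72.3%). Paired genes share 1 break, which counts at both. The sources used here do not give how reads that fit several histone copies were placed, and its part in the breaks was not tested.

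The unpaired H2A and H2B genes ranged from strong to unmarked. H2AC4 (26033092 to 26033618) had folds of 44.8 and 42.5, and H2BC10 had 26.2 and 56.2. H2BC5 took its strongest values from the interval of the neighbouring H1-4, and the intervals that begin at its own start (26158120 and 26158098, gene start 26158121) had folds of 17.3 for H3K27ac and 65.4 for H3K4me3. At H2BC3 a single H3K27ac peak of fold 3.16 with 11 fragments (5.49 to 19.7) lay 500 bp away. H2BC6, H2BC9 and H2AC16 had neither mark. H2BC6 holds the octamer and CCAAT, as shown in its sequence above, and its TATAAA match begins at -189 from the start. The position of this string does not set unmarked H2B genes apart. The marked H2BC17 has no TATAAA in its window, and the unmarked H2BC13 has it at -30. The records of H2BC4, H2BC5 and H2BC12 span 10757, 13229 and 8566 bp and so can meet more peaks than those of other copies, with 8, 13 and 2 H3K27ac peaks.

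The H3 genes were either strongly marked or nearly bare. H3C1, H3C2, H3C4, H3C8, H3C10 and H3C12 had both marks. For the strongest peak within 1 kb, H3K27ac folds ran from 19.6 (H3C12) to 44.8 (H3C2) and H3K4me3 folds from 41.0 (H3C12) to 66.6 (H3C4). The 44.8 of H3C2 (26031589 to 26032099) is the value of the H2AC4 interval, which does not touch the H3C2 record. The intervals that touch H3C2 had folds of 29.8 for H3K27ac and 28.2 for H3K4me3. The record of H3C4 covers H2AC7 and starts with it, so its peaks cannot be told apart from those of H2AC7. H3C12 was not touched by a peak itself. H3C3 and H3C6 had 1 weak H3K27ac peak each, of folds 3.57 and 3.22 with 13 and 12 fragments, and H3C7 and H3C11 had neither mark. H3C7 has CCAAT and TATAAA matches in its promoter window.

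The H4 genes had the lowest H3K4me3 of the 5 classes. The median fold over the 8 marked H4 genes was 38.3, against 57.6 for 3 H1, 49.7 for 8 H2A, 53.6 for 9 H2B and 45.1 for 6 H3 genes. Their median H3K27ac fold was 29.8, between 27.3 for H3 and 38.5 for H1. H4C3 (26103933 to 26104337) had the lowest H3K4me3 fold of the marked histone genes, 14.6 with 68 fragments (52.8 to 86.2), beside an H3K27ac fold of 26.5 with 124. H4C5 and H4C2 followed with H3K4me3 folds of 33.2 and 33.3, and H4C12 had 36.0, H4C9 40.5, H4C4 41.9 and H4C1 47.8. H4C8 was highest for both marks, with H3K27ac at 41.3 (190 fragments, 163.9 to 219.0) and H3K4me3 at 53.0 (184, 158.4 to 212.6). H4C6, H4C7, H4C11 and H4C13 had neither mark.

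**Figure D5:**
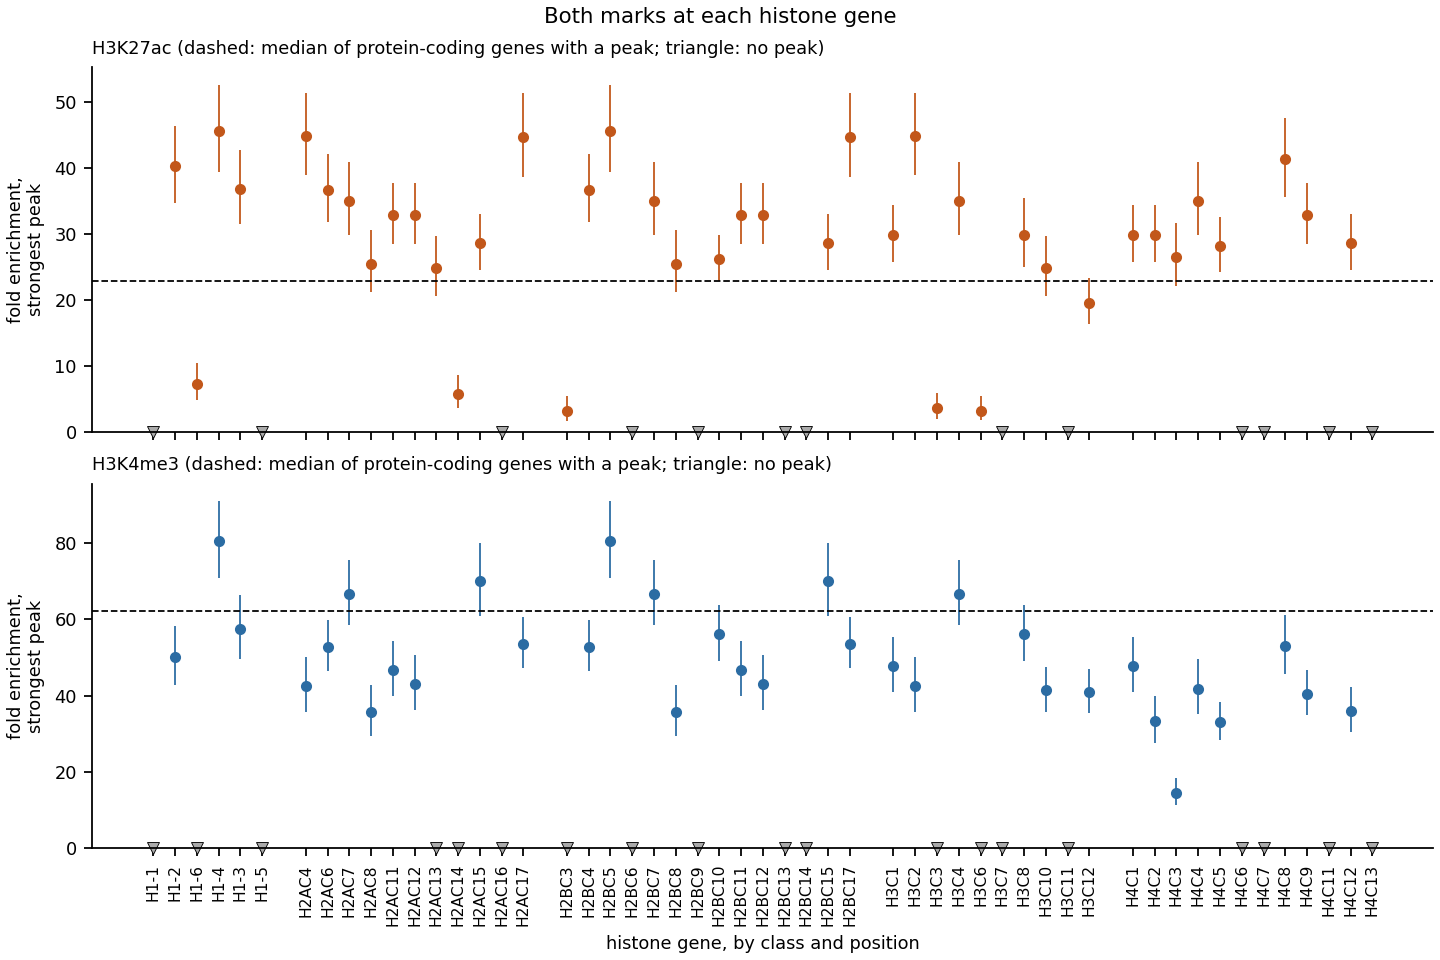
Fold enrichment of the strongest H3K27ac (top) and H3K4me3 (bottom) peak at each of the 53 histone genes, grouped by class and ordered by position. Bars are 95% Poisson intervals of the fragments at the summit, converted to fold at the same background, dashed lines the medians of all protein-coding genes with a peak, and triangles genes without one. H3K27ac values leave a space between 7.30 and 19.6, and most H4 genes lie low for H3K4me3.

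By the strongest peak within 1 kb, 35 of the histone genes with H3K27ac had a fold of 19.6 to 45.6 and the remaining 5 a fold of 3.16 to 7.30. Those 5, namely H2BC3, H3C6, H3C3, H2AC14 and H1-6, were among the 6 genes with H3K27ac but no H3K4me3. The sixth was H2AC13, called through the interval of H3C10. The lower bound of 19.6 depends on taking the strongest peak. The H3K27ac intervals at H2AC8 and at the start of H2BC5 had folds of 19.3 and 17.3. Across the 34 genes with both marks the folds of the marks were correlated with a Pearson r of 0.44 and a Spearman rho of 0.49, near the 0.52 and 0.50 across all 13448 genes with both. These genes share intervals and libraries, and over the 23 distinct pairs of intervals r was 0.46 and rho 0.52.

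Copies that resemble each other call for care. Of 1896 promoter pairs of histone genes with at least 1 gene of the window, 4 were at least 80% identical: H3C4 with H2AC7 (100%, the same start), H4C11 with H4C12 (98.3%), H2AC13 with H2AC14 (85.8%) and H2BC13 with H2BC14 (80.1%). The median over all these pairs was 42.6%. In the last 3 of these pairs at most 1 gene carried both marks. H4C12 had folds of 28.6 and 36.0, but the H3K27ac value is that of the H2AC15 interval, with its summit at -6143 bp from the start of H4C12 (negative values lie upstream). The peak touching the other end of its record had a fold of 23.3. The nearest peak to H4C11 lay 4260 bp away. H2BC13, H2AC13, H2AC14 and H2BC14 lay outside every interval. Values at these copies are uncertain, because the placement of reads that fit both is not known.

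A single super-enhancer of the authors' deposited table lies within 1 kb of a histone gene (1 of 53 genes, against 3.03% of all protein-coding genes and 1.78% of those with records of at most 3 kb). It spans 60.4 kb (26276603 to 26337037), was assigned to H4C8 under its older symbol HIST1H4H and has rank 410 in the authors' deposited table. H4C8 is the only histone gene inside it. It holds 23 H3K27ac and 6 H3K4me3 peaks, and the strongest H3K27ac peak in it, of fold 41.3, is the one at H4C8. In the deposited table its H3K27ac signal is 4.76 times its input signal, against a median of 8.11 over all its regions. The table's name states that targets were chosen on transcription, so the assignment is not a separate measurement of H4C8.

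Outside the window, 17 further histone genes with symbols starting H2AC, H2BC, H3C or H4C comprised 11 with both marks, 6 with neither and none with H3K27ac only. The median folds of the genes in the window with a peak, 31.3 over 40 genes for H3K27ac and 47.8 over 34 for H3K4me3, stood against 34.7 and 65.0 over the 11 marked genes outside it. H2AC18 and H4C15 on chromosome 1 had 34.7 and 79.4, H4C16 on chromosome 12 had 23.4 and 65.0, and H3C14 and H3C15 had neither mark. Several of the chromosome 1 copies are near-identical duplicates, so their values are uncertain. Of 11 histone genes listed as replication-independent, 10 carried both marks and MACROH2A2 H3K4me3 only. Their H3K4me3 median was 72.9, with H2AX at 99.1 and H3-3B at 74.9. All 19 matched genes for factors of histone gene transcription and mRNA processing carried both marks. NPAT had folds of 28.8 and 56.5, CDK2 27.8 and 78.1, LSM11, a subunit of the histone mRNA processing U7 particle, 20.3 and 60.6, and YY1 48.2 and 91.2. The 19 other protein-coding genes between 25900 and 28000 kb carried both marks in 11 cases. Their median folds were 16.6 for H3K27ac and 51.3 for H3K4me3.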

How the data were processed

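The submitters' processing notes name Bowtie2 (version 2.3.4), bedtools (version 2.20.1) and build hg38. No source used here names the peak caller. The authors deposited 1 peak list per mark from a single library, with the fold enrichment at the summit, the −log10 p-value and q-value and a score computed from the −log10 q. They also deposited a super-enhancer table with total H3K27ac and input signal, whose scaling is not given. The lowest −log10 q was 1.32 for H3K27ac and 1.33 for H3K4me3.

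Here the whole-number pileup of fragments and the expected background were recovered from fold and p (tolerance 0.01 on the −log10 scale, 100% of peaks). The procedure was tested on simulated data. Exact Poisson intervals (95%) cover counting error only, and the total reads per library are unknown. Genes, starts and promoters are those of RefSeq GRCh38.p14, and 48 of 53 histone genes had a start. Python 3.11.15, pandas 2.3.3, scipy 1.17.1 and Biopython 1.88 were used. The input library was used here only through the super-enhancer table. The folds and p-values of the peaks were taken as deposited, and whether their expected background came from the input was not examined.

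The genes, lists and motifs were chosen with earlier results of these data known. All 53 genes were accounted for. Named with values were those lacking a mark, the extremes of each class, and those in the widest intervals or a super-enhancer, and further marked genes were added after their values were seen. The window, peak threshold, overlap rule and gene set were varied. The list of factors held 20 symbols, of which 19 matched. One marker of the other cell types is not reported here.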

Additional observations from a re-analysis of the deposited data

How the results depend on the processing

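No paired analysis was possible because each mark has 1 library and no result comes from a test. The count of histone genes with H3K27ac was 35 to 44 under 6 other windows, thresholds and overlap rules, that with H3K4me3 32 to 36 and that with both marks 28 to 36, each within 1.5 times the reported count. At 28, where the summit had to lie in the window, H4C2, H4C4, H3C8, H2AC11, H4C9 and H3C12 lost a mark. The top 50% of peaks removed H3K27ac from H2BC3, H3C3 and H3C6. The median H3K27ac fold was 7.89 when each of the 53 distinct peaks near a histone gene counted once, because this setting takes every peak and not the strongest per gene. With 8 and 13 H3K27ac peaks, the long records of H2BC4 and H2BC5 hold many of them. With records of at most 3 kb, the share of all protein-coding genes was 35.6% for H3K27ac, 36.0% for H3K4me3 and 31.8% for both marks. A break of at most 250 bp, an alternative chosen after seeing the data, left 16 genes with a break in H3K27ac and 17 in H3K4me3. The weakest listed peaks held 9 fragments for H3K27ac and 8 for H3K4me3, and enrichment below the lists' threshold was not detectable.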

Other observations

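The same window holds 100 tRNA genes, which RNA polymerase III transcribes, and 42 of them lay within 1 kb of both marks (42%). Of 343 tRNA genes elsewhere on chromosomes 1 to 22 and X, 181 did (52.8%). Of the 209 H3K27ac peaks of the window 47 lay near a tRNA gene and no histone gene, and 32 of the 103 H3K4me3 peaks did. A further 82 H3K27ac and 17 H3K4me3 peaks lay near neither kind nor near another protein-coding gene. The median fold of the H3K4me3 peak at a tRNA gene that had one was 39.1.

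Of the histone pseudogenes of the window, H3C9P carried both marks in peaks that no functional histone gene shares, at 19.5 (H3K27ac) and 39.1 (H3K4me3) fold, inside the super-enhancer assigned to H4C8. Its H3K4me3 fold is the same value as the median at tRNA genes of the window. Whether a tRNA gene lies near these peaks is not given here. H1-12P, H3C5P, H2AC9P and H2AC10P lay in intervals shared with histone genes, and H3P26, H2AC5P, H4C10P and H2BC16P had neither mark.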
